A study of Rattus norvegicus and Mus musculus with 24 samples.

Results

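Insulin-like growth factor 1 (IGF1), its receptor IGF1R and the IGF binding proteins IGFBP1 to IGFBP7 were examined in kidneys of mice and rats lacking Ctns, the gene for the lysosomal cystine transporter that is lost in cystinosis. The 9 genes were chosen by name, and they were chosen with the KO against WT values of these same libraries already known. Differences between genotypes are therefore given for them as a description and support nothing by themselves. All 9 were among the 17376 symbols of the mouse table, and 7 were among the 14931 symbols of the rat table. IGFBP1 and IGFBP3 were listed for the mouse only and were not analysed here in the rat.

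Each animal gave 1 RNA library, and there were 8 mice (4 Ctns KO, 4 Ctns WT) and 16 rats (8 of either genotype). The mice were of C57BL/6 background and the rats of Sprague-Dawley background, both were knockout lines in which every tissue carries the altered gene, and the WT animals were littermates. The methods describe the mice of the study as females of several ages, without giving the age of those sequenced, and neither age nor sex was given for the sequenced rats. The rats carried numbers 17 to 24 or 25 to 32, with 4 of each genotype in each range, and the meaning of these numbers is not given in the sources used here. The labels name kidney cortex and also dissected proximal tubules. In the methods the sequenced RNA came from kidney cortex, and dissected proximal tubules were used for microarrays. Podocyte markers summed to 684 to 795 CPM (read counts scaled to a common library size) in the mouse libraries. They summed to 515 to 827 CPM in Ctns WT and 424 to 747 CPM in Ctns KO rats, and no marker of that list was at 0 in a group.

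IGF1 is a circulating and locally made growth factor, and IGF1R is the tyrosine kinase through which it activates PI3K, AKT and mTORC1. IGFBP1 to IGFBP6 bind IGFs tightly, lengthen their life in the circulation and limit their access to the receptor, whereas IGFBP7 is a relative with low affinity for IGFs. Proteases such as PAPPA release the bound factor by cutting the binding proteins. In the kidney the axis is known for raising glomerular filtration and tubular phosphate reabsorption.

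Mouse libraries held between 19309449 and 44449859 reads, and rat libraries between 24684097 and 40629873. Mouse values are scaled values, in which 1 is the 75th percentile of a library, and rat values are CPM of a library size corrected by TMM, a scaling that discounts genes taking up unequal shares of reads. CTNS RNA had a scaled value of 0.918 ± 0.0869 in the 4 Ctns WT mice and 0.332 ± 0.0102 in the 4 Ctns KO mice (mean ± SD), with no overlap. In rats CTNS ranged from 16.8 to 22.2 CPM in Ctns KO and from 19.2 to 27.8 CPM in Ctns WT animals, and 5 of 8 Ctns KO rats lay below every Ctns WT rat. For CTNS the log2 fold change was -0.22 over all rats (adjusted p = 0.0511, edgeR), -0.12 in rats 17 to 24 (adjusted p = 0.599) and -0.32 in rats 25 to 32 (adjusted p = 0.0111). One library stood apart from the other mice: Ctns KO mouse 3 had 2.54 CPM of XIST, a transcript of the inactive X chromosome, against 892 to 1121 CPM in the other 7, although the methods describe the mice as female. No mouse library held a read of 4 genes of the Y chromosome (USP9Y, UTY, KDM5D, DDX3Y). In bulk RNA, fewer cells of a type and less RNA per cell cannot be told apart. The p-values weigh a difference against a spread that was estimated from these animals only.

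In the rat, 3 of the members had a KO against WT difference past the threshold (adjusted p under 0.05) over all rats or in either number range: IGFBP2, IGFBP4 and IGFBP6. Of symbols left by a filter on low reads, 27.5% of 11584 passed over all rats. By number range, 6.96% of 11839 passed in rats 17 to 24 and 50.0% in rats 25 to 32. Below, rat shares of symbols that passed are of these filtered symbols, and mouse shares are of all 17376 symbols, without a filter. Nothing is read from the count of members. The 250 bases before the RefSeq start of each of these 3 genes, in rat build GRCr8 and on the plus strand, are shown because the genes moved in different ways. GRCr8 is not the build rn5 that the submitters' notes name. They are chr9:81864561-81864810 for IGFBP2, chr10:84491221-84491470 for IGFBP4 and chr7:135154669-135154918 for IGFBP6. Capitals mark matches, on either strand and without overlaps between motifs, to a GC box spelled GGGCGG, the letters TATAAA of the box near many start sites, a forkhead site spelled GTAAACA, or the letters TGANTCA of an AP-1 site.
IGFBP2: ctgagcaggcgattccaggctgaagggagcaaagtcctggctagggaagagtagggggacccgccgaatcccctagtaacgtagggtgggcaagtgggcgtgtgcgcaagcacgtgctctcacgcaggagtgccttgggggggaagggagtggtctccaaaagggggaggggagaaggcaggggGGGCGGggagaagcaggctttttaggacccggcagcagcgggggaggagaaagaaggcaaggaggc
IGFBP4: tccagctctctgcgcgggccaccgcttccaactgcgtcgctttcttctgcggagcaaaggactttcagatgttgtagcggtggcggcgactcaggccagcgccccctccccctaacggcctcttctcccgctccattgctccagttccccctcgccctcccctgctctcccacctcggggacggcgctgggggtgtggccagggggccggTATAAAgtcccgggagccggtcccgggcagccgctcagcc
IGFBP6: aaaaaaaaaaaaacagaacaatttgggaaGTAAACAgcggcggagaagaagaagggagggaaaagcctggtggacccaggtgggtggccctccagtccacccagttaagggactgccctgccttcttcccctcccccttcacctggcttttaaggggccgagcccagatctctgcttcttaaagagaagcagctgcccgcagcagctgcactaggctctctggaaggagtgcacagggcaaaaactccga

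IGFBP4 held the letters TATAAA from position -40 to -35 counted from its start, a motif found in 14.2% of 33469 rat promoters of 300 bases. IGFBP6 held a forkhead match from position -221 to -215, found in 3.78% of the promoters. IGFBP2 held a GC box from position -66 to -61, found in 33.1%. Among the promoters of all 9 members, IGF1R also held 1 GC box and IGFBP7 held 4, and none held the AP-1 letters, which 7.33% of all promoters did. These are matches of letters and not sites.

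In mouse kidney IGF1 and IGFBP2 were higher and IGFBP3 was lower in Ctns KO than in Ctns WT littermates. These 3 of 9 members passed the threshold beside 4.71% of all symbols tested, and because the choice of genes used this contrast nothing is read from that count. All 3 also had groups that did not overlap, which held for 12.7% of symbols with a read. The other 6 members, IGF1R, IGFBP1, IGFBP4, IGFBP5, IGFBP6 and IGFBP7, did not pass the test.

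IGF1, the ligand, was encoded on chr10:87858265-87937042 of mouse build GRCm38 on the plus strand, where the antisense gene Igf1os overlaps it. Its scaled value was 0.205, 0.203, 0.227 and 0.222 in Ctns KO mice 3, 5, 6 and 8, and 0.153, 0.144, 0.138 and 0.174 in Ctns WT mice 1, 2, 4 and 7. Every Ctns KO mouse lay above every Ctns WT mouse. The log2 fold change was 0.32 with a standard error of 0.05 (adjusted p = 0.0181, limma), on the log2(value + 0.1) scale, on which low values show too small a change. On recovered reads edgeR's quasi-likelihood test gave 0.47 (adjusted p = 0.0124). The call was lost without Ctns KO mouse 6 or Ctns WT mouse 4 (limma adjusted p = 0.0629 and 0.0513).

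IGF1R lay on chr7:67952827-68233668 on the plus strand and had scaled values of 1.84 ± 0.170 and 1.93 ± 0.328 in Ctns KO and Ctns WT mice (SD, n = 4 each). The groups overlapped fully. On the log2 scale the genotypes differed by -0.05 with a standard error of 0.13 (adjusted p = 0.950, limma).

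IGFBP3, the main carrier of IGFs in serum, lay on chr11:7206086-7213923 on the minus strand. Scaled values were 4.73, 3.45, 3.58 and 3.49 in Ctns KO mice 3, 5, 6 and 8, and 8.31, 6.34, 6.97 and 5.67 in Ctns WT mice 1, 2, 4 and 7. All Ctns KO mice lay below all Ctns WT mice, and mouse 3 was the highest of the Ctns KO group. The log2 fold change was -0.82 with a standard error of 0.14 (adjusted p = 0.0207, limma), and -0.93 (adjusted p = 0.0193) without mouse 3. Leaving out Ctns KO mouse 5, 6 or 8 or Ctns WT mouse 4 moved the limma adjusted p past the threshold, to between 0.0517 and 0.0679, with log2 fold changes of -0.81 to -0.78.

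IGFBP1, a carrier that insulin holds low, is the neighbour of IGFBP3 at chr11:7197782-7202546 on the plus strand, with 3539 bases and no protein-coding gene between them. Its scaled value was 0.336, 0.406, 0.341 and 0.377 in Ctns KO mice 3, 5, 6 and 8, and 0.717, 0.842, 0.285 and 0.650 in Ctns WT mice 1, 2, 4 and 7. A single Ctns WT animal, mouse 4, lay below the whole Ctns KO group, and the other 3 lay above it. The log2 fold change was -0.57 with a standard error of 0.26 (adjusted p = 0.310, limma). Without Ctns WT mouse 4 it was -0.84 (adjusted p = 0.0138, limma).

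IGFBP2, a carrier that is abundant before birth, lay on chr1:72824503-72852474 on the plus strand. Its scaled value was 0.0768, 0.0993, 0.121 and 0.0854 in Ctns KO mice 3, 5, 6 and 8, from 73, 129, 191 and 143 reads. In Ctns WT mice 1, 2, 4 and 7 it was 0.0352, 0.0214, 0.0134 and 0.0574, from 55, 19, 19 and 119 reads. The groups did not overlap and their means differed 2.999-fold. The log2 fold change was 0.57 with a standard error of 0.11 (adjusted p = 0.0330, limma), and 1.52 on recovered reads (adjusted p = 0.0292, edgeR). The limma call was lost when any mouse other than Ctns WT mouse 7 was left out (adjusted p = 0.0539 to 0.0938), and was 0.0539 without mouse 3.

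IGFBP5, which binds extracellular matrix as well as IGFs, is the neighbour of IGFBP2 at chr1:72857932-72874884 on the minus strand, with 5457 bases and no protein-coding gene between them. Its scaled values were 11.1 ± 0.242 and 12.3 ± 1.79 in Ctns KO and Ctns WT mice (SD, n = 4 each). IGFBP4, which holds IGFs away from the receptor and is cut by PAPPA, lay on chr11:99041244-99054392 and had values of 19.8 ± 1.98 and 20.96 ± 5.69 (SD, n = 4 each). Both overlapped between genotypes, with log2 fold changes of -0.14 for IGFBP5 and -0.05 for IGFBP4 (limma adjusted p = 0.520 and 0.963).

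IGFBP6, which prefers IGF2 to IGF1, lay on chr15:102144362-102149511, and IGFBP7, a secreted protein measured in urine as a sign of kidney injury, on chr5:77349240-77408041, where it overlaps Polr2b on the other strand. IGFBP6 was near the low end, with 24 to 55 reads in every mouse and a scaled value of 0.0323 ± 0.00952 in Ctns KO against 0.0256 ± 0.00725 in Ctns WT mice (SD, n = 4 each). IGFBP7 was 36.4 ± 1.13 against 35.5 ± 3.57 (SD, n = 4 each). Their log2 fold changes were 0.07 and 0.04 (limma adjusted p = 0.612 and 0.887). The 0.1 added before the log shrinks changes of low values, and the IGFBP6 means differed 1.261-fold.

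**Figure D1:**
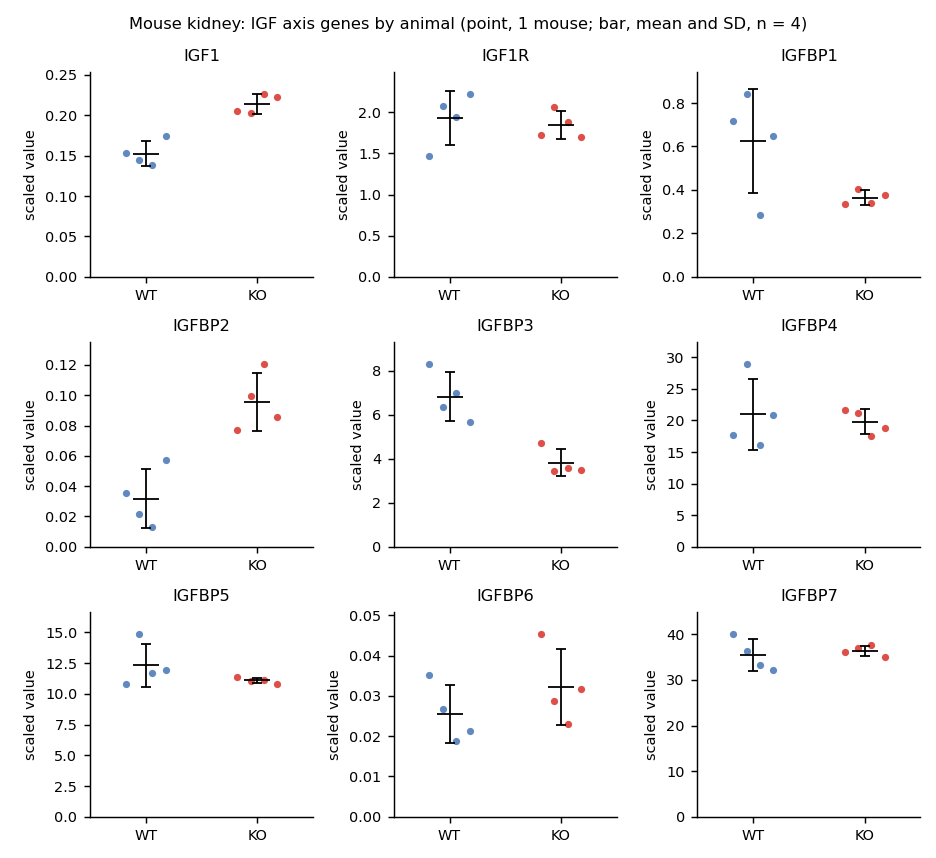
Scaled value (vertical axes, starting at 0) of each member in 4 Ctns WT and 4 Ctns KO mice, with the mean and SD of each group as bars. IGF1 and IGFBP2 lie higher and IGFBP3 lies lower in all 4 Ctns KO mice, and for IGFBP1 a single Ctns WT mouse, at 0.285, lies below the Ctns KO group.

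Read per transcript length, as CPM of all library reads per kilobase of the longest principal GENCODE transcript (RPKM), levels could be compared between members in the mouse. IGFBP7 had the highest level, 1391 ± 141 RPKM (SD, n = 4) in Ctns WT mice, and IGFBP4 followed with 257 ± 66.1. IGFBP3 at 133 ± 22.9 and IGFBP5 at 96.3 ± 12.8 came next in Ctns WT mice, with ranges of 109.6 to 162 and 84.9 to 115 RPKM that overlapped. In Ctns KO mice this pair stood the other way round, IGFBP5 at 91.4 ± 1.95 and IGFBP3 at 77.9 ± 12.6, again with overlapping ranges. IGFBP1 was at 19.2 ± 7.205 RPKM in Ctns WT mice and IGF1R at 7.94 ± 1.31. IGF1, IGFBP2 and IGFBP6 were the lowest, at 4.28, 1.13 and 1.07 RPKM in Ctns WT mice, and the order of these 3 was not the same when the union of all exons was used as length.

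**Figure D2:**
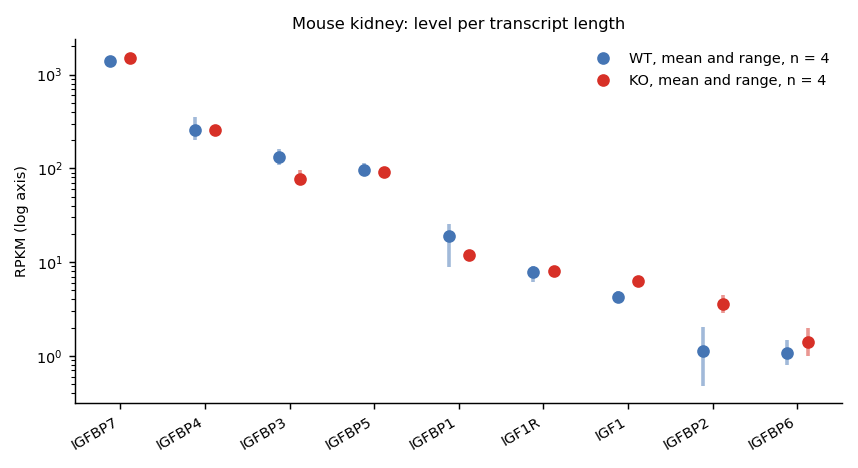
Level per transcript length in RPKM (vertical log axis) of the members in 4 Ctns WT and 4 Ctns KO mice, with the mean as a point and the range as a bar. IGFBP7 stands highest at 1391 RPKM in Ctns WT mice, and IGFBP3 and IGFBP5 change places between the genotypes.

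Cell type markers moved with genotype in the same mice, where 4.71% of all symbols passed. Of the fibroblast and pericyte markers, 4 of 7 were higher and none was lower in Ctns KO mice (limma), and their summed level was 311 to 357 CPM against 165 to 201 CPM, with no marker at 0. Macrophage markers were higher for 3 of 5 (92.3 to 103 against 63.5 to 77.4 CPM), and proximal tubule markers passed for 0 of 8 (12750 to 13660 against 12560 to 16640 CPM). Proliferation markers were higher for 3 of 3 (40.7 to 81.3 against 8.12 to 14.2 CPM) and tubular injury markers for 2 of 3 (63.3 to 70.3 against 28 to 44.1 CPM). Lymphocyte markers were higher for 1 of 4 (26.2 to 31.2 against 19.1 to 20.4 CPM). Thick limb and distal tubule markers passed for 0 of 4, with a summed level of 9393 to 10330 against 7597 to 8839 CPM. The part of these cells in the values of IGF1, IGFBP2 and IGFBP3 was not tested.

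Over all 16 rats IGFBP4 was lower and IGFBP6 was higher in Ctns KO than in Ctns WT kidneys. They were 2 of the 7 members tested, beside 27.5% of all symbols at the same threshold, and nothing is read from that count. No member had genotypes without overlap over all rats, which held for 5.04% of symbols. Within rats 17 to 24, 1 member passed beside 6.96% of symbols, and within rats 25 to 32 it was 3 members beside 50.0%.

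IGFBP4 ranged from 115 to 221 CPM in Ctns KO rats (median 152, n = 8) and from 187 to 458 CPM in Ctns WT rats (median 345, n = 8). Among rats 17 to 24 it was 221, 143, 205 and 162 CPM in Ctns KO rats 18, 20, 22 and 24, and 187, 287, 458 and 424 CPM in Ctns WT rats 17, 19, 21 and 23. Among rats 25 to 32 it was 125, 138, 115 and 166 CPM in Ctns KO rats 26, 28, 30 and 32, and 264, 293, 397 and 434 CPM in Ctns WT rats 25, 27, 29 and 31. Ctns WT rat 17 was the only WT animal within the Ctns KO range, and 6 of 8 Ctns KO rats lay below every Ctns WT rat.

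Over all rats the log2 fold change of IGFBP4 was -1.11 (standard error 0.18, adjusted p = 0.000326, edgeR quasi-likelihood test). It was -0.89 (standard error 0.24, adjusted p = 0.0369) within rats 17 to 24 and -1.36 (standard error 0.25, adjusted p = 0.000321) within rats 25 to 32 by the same edgeR test. The first of these 2 calls was lost without Ctns KO rat 20, 22 or 24 or Ctns WT rat 21 or 23 (edgeR adjusted p = 0.0597 to 0.128), with the 8 rats fitted alone (0.163) and with no filter on low reads (0.0534), whereas the others kept their side of the threshold whichever rat was left out. IGFBP4 took 4.83% ± 1.01 of the reads on the 5 binding proteins of the rat table in Ctns KO and 9.34% ± 2.59 in Ctns WT rats (SD, n = 8 each).

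IGFBP6 was near the low end of detection, with 5 to 53 reads per rat. Among rats 17 to 24 it was 0.256, 0.881, 0.317 and 0.618 CPM in Ctns KO rats 18, 20, 22 and 24, and 0.604, 0.236, 0.338 and 0.377 CPM in Ctns WT rats 17, 19, 21 and 23. Among rats 25 to 32 it was 1.49, 1.77, 1.47 and 2.15 CPM in Ctns KO rats 26, 28, 30 and 32, and 0.335, 0.233, 0.188 and 0.259 CPM in Ctns WT rats 25, 27, 29 and 31. The genotypes overlapped in the lower range and stood apart in the higher range.

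The log2 fold change of IGFBP6 was 1.80 over all rats (standard error 0.41, adjusted p = 0.00353, edgeR), 0.45 within rats 17 to 24 (standard error 0.37, adjusted p = 0.601) and 2.74 within rats 25 to 32 (standard error 0.35, adjusted p = 7.03e-06). The difference between these 2 values, the interaction of genotype with number range, was 2.29 (standard error 0.52, adjusted p = 0.00945, edgeR), and 2 of 7 members passed for that interaction beside 14.7% of symbols.

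IGFBP2 was 41.1, 46.1, 34.8 and 40.2 CPM in Ctns KO rats 18, 20, 22 and 24, and 45.9, 47.9, 46.4 and 43.1 CPM in Ctns WT rats 17, 19, 21 and 23. It was 49.4, 50.1, 38.9 and 45.8 CPM in Ctns KO rats 26, 28, 30 and 32, and 34.8, 30.97, 38.4 and 39.6 CPM in Ctns WT rats 25, 27, 29 and 31. Of the Ctns KO rats, 3 of 4 lay below every Ctns WT rat in the lower range, and 3 of 4 lay above every Ctns WT rat in the higher range. The log2 fold change was 0.08 over all rats (adjusted p = 0.549, edgeR), -0.18 (adjusted p = 0.324) in rats 17 to 24 and 0.35 (standard error 0.10, adjusted p = 0.00527) in rats 25 to 32. The interaction was 0.53 (standard error 0.13, adjusted p = 0.0152, edgeR).

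**Figure D3:**
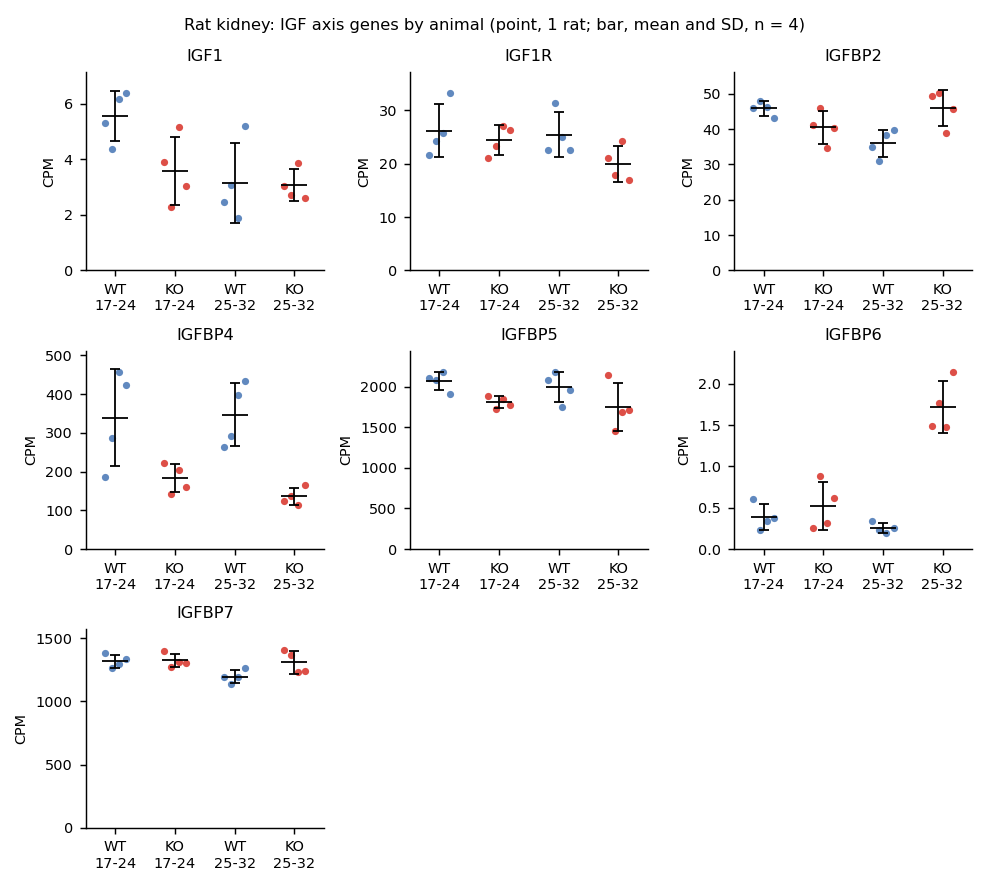
CPM (vertical axes, starting at 0) of the 7 members of the rat table by genotype and number range, 4 rats in each column, with the mean and SD as bars. IGFBP4 has lower means in Ctns KO in both ranges, IGFBP6 stands above 1.4 CPM in Ctns KO rats 25 to 32 only, and IGFBP2 is lowest in Ctns WT rats 25 to 32.

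The remaining 4 members of the rat table did not pass the test over all rats or within a range, but calls in rats 25 to 32 changed with the processing. There DESeq2 gave an adjusted p of 0.0428 for IGFBP7 and 0.0499 for IGF1R, and total reads as scale, an alternative chosen after seeing the data, gave 0.000145 for IGFBP7 (log2 fold change 0.30). In the same range edgeR's adjusted p fell under the threshold for IGFBP7 without Ctns KO rat 30 or 32 or Ctns WT rat 31 (0.0340 to 0.0468), for IGF1R without Ctns KO rat 30 (0.0169) and for IGFBP5 without Ctns KO rat 26 (0.00602). IGF1 was 2.27 to 5.14 CPM in Ctns KO and 1.88 to 6.37 CPM in Ctns WT rats, with a log2 fold change of -0.39 and a standard error of 0.24 (adjusted p = 0.244, edgeR). IGF1R ranged from 16.8 to 27 CPM and from 21.5 to 33.2 CPM in the same order, with a log2 fold change of -0.22 (adjusted p = 0.163, edgeR). No Ctns KO rat lay below every Ctns WT rat for IGF1, and 4 of 8 did for IGF1R.

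IGFBP5 was 1451 to 2148 CPM in Ctns KO and 1750 to 2181 CPM in Ctns WT rats, with a log2 fold change of -0.19 and a standard error of 0.07 (adjusted p = 0.0597, edgeR). Within rats 17 to 24 its genotypes did not overlap, at 1721 to 1887 against 1910 to 2180 CPM, which held for 12.1% of symbols in that range. The call changed with the processing, to an adjusted p of 0.0309 with DESeq2 and 0.0395 with number range as a covariate in edgeR. IGFBP7 was 1229 to 1403 against 1135 to 1379 CPM, with a log2 fold change of 0.07 and a standard error of 0.05 (adjusted p = 0.378, edgeR). In rats 25 to 32, where IGFBP4 and IGFBP6 had genotypes that did not overlap, this held for 35.4% of symbols.

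**Figure D4:**
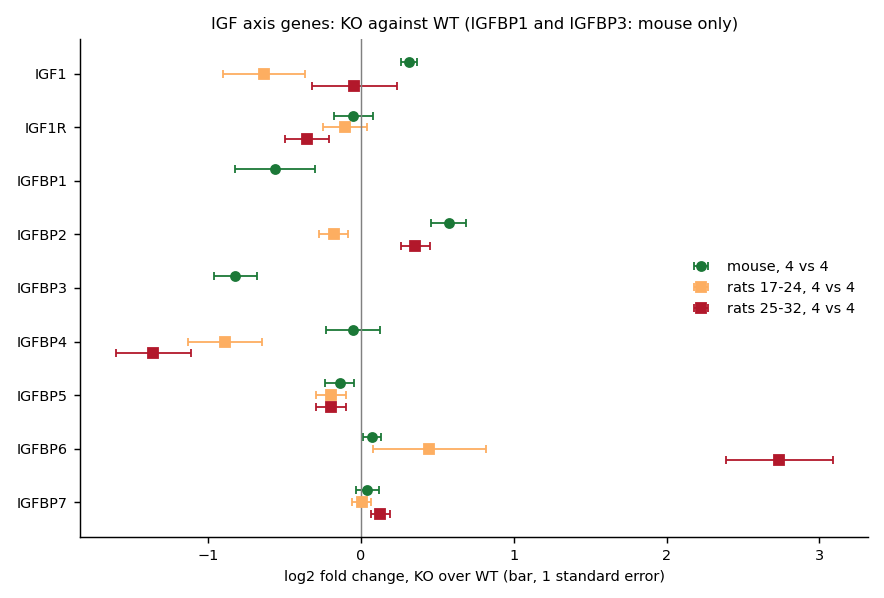
Log2 fold change of Ctns KO over Ctns WT (horizontal axis, bars of 1 standard error) for each member in mice and in rats of each number range. IGFBP6 in rats 25 to 32 lies at 2.74, IGFBP4 lies below 0 in both rat ranges and near 0 in mice, and IGFBP2 has opposite signs in the rat ranges.

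In the rats, where 27.5% of all symbols passed, markers of several cell types moved with genotype as well. Proximal tubule markers were lower for 4 of 6 (edgeR), with a summed level of 5971 to 8193 CPM in Ctns KO and 9211 to 12880 CPM in Ctns WT rats. Fibroblast and pericyte markers were higher for 6 of 7, at 325 to 534 against 258 to 298 CPM, and macrophage markers for 4 of 5, at 87.6 to 189 against 65.2 to 95.5 CPM. Tubular injury markers were higher for 3 of 3. Their summed level was 58.0 to 86.3 CPM in Ctns KO rats 17 to 24 and 249 to 367 CPM in Ctns KO rats 25 to 32, against 20.4 to 33.4 CPM in Ctns WT rats. No marker of these lists was at 0 in a group, and their part in the values of IGFBP4, IGFBP6 and IGFBP2 was not tested.

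The contrast between number ranges within 1 genotype is not the one by which the genes were chosen, but it rests on values of the same rats, so its p-values are not independent of that choice. In Ctns WT rats, 2 of 7 members differed, beside 21.1% of all symbols, and both were lower in rats 25 to 32. IGF1 was 5.32, 4.36, 6.15 and 6.37 CPM in Ctns WT rats 17, 19, 21 and 23, and 2.46, 3.08, 1.88 and 5.19 CPM in rats 25, 27, 29 and 31. Rat 31 lay within the higher group and the other 3 lay below it. The log2 difference was -0.82 (standard error 0.27, adjusted p = 0.0395, edgeR), and it was lost without rat 17, 21, 23, 25, 27 or 29 (adjusted p = 0.0621 to 0.112).

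IGFBP2 differed between the same Ctns WT rats by -0.35 on the log2 scale (standard error 0.10, adjusted p = 0.0136, edgeR), with 30.97 to 39.6 CPM in rats 25 to 32 and 43.1 to 47.9 CPM in rats 17 to 24. The ranges did not overlap, and the call was kept whichever rat was left out (adjusted p up to 0.0424). IGFBP7 had a log2 difference of -0.14 (standard error 0.06, adjusted p = 0.109, edgeR), at 1135 to 1261 against 1261 to 1379 CPM. Scaling each library by its total reads, chosen after seeing the data, moved the median of all symbols by -0.13 in this contrast and IGFBP7 to -0.27 (adjusted p = 0.00102). DESeq2 gave -0.14 (adjusted p = 0.0495). IGF1R, IGFBP4, IGFBP5 and IGFBP6 did not pass, with intervals of 2 standard errors from -0.33 to 0.24 for IGF1R, -0.45 to 0.52 for IGFBP4, -0.25 to 0.14 for IGFBP5 and -1.42 to 0.26 for IGFBP6.

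Between the ranges of Ctns WT rats, podocyte markers were lower in rats 25 to 32 for 3 of 4 (515 to 620 against 706 to 827 CPM), endothelial markers for 4 of 6 (475 to 508 against 546 to 589 CPM) and markers of the thick limb and distal tubule for 3 of 3 (2822 to 3486 against 3612 to 4328 CPM). Proximal tubule markers were higher for 3 of 6 and lower for 1, macrophage markers were higher for 3 of 5 and lower for 1 (88.5 to 95.5 against 65.2 to 79.0 CPM), and injury markers were higher for 2 of 3 (27.4 to 33.4 against 20.4 to 21.6 CPM). Of all symbols, 21.1% passed in this contrast. The part of these markers in the values of IGF1 and IGFBP2 was not tested.

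In Ctns KO rats the contrast of number ranges was past the threshold for 1 member, IGFBP6, beside 47.0% of all symbols. It was higher in rats 25 to 32, by 1.71 on the log2 scale (standard error 0.31, adjusted p = 0.000420, edgeR), with 1.47 to 2.15 CPM against 0.256 to 0.881 CPM and no overlap. Leaving out any of the 8 rats kept the call (log2 difference 1.47 to 2.08, adjusted p up to 0.00214). IGFBP4 had a log2 difference of -0.43 (standard error 0.24, adjusted p = 0.155), with 3 of 4 rats of the higher range below all of the lower range, and it passed when the 8 Ctns KO rats were fitted alone (adjusted p = 0.0308, edgeR). Without Ctns KO rat 30, IGF1R and IGFBP2 passed in this contrast (edgeR adjusted p = 0.0355 and 0.0296). IGF1, IGF1R, IGFBP2, IGFBP5 and IGFBP7 had differences of -0.22, -0.29, 0.18, -0.05 and -0.02 (edgeR adjusted p = 0.525, 0.109, 0.125, 0.684 and 0.810).

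Beside the rise of IGFBP6, injury markers were higher in rats 25 to 32 for 3 of 3, macrophage markers for 5 of 5 (152 to 189 against 87.6 to 97.8 CPM) and fibroblast and pericyte markers for 4 of 7 with 1 lower (475 to 534 against 325 to 432 CPM). Of all symbols, 47.0% passed in this contrast. Endothelial markers were lower for 5 of 6, podocyte markers for 3 of 4 and proximal tubule markers for 3 of 6. Lymphocyte markers were higher for 2 of 2. Their part in the difference of IGFBP6 was not tested.

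Other genes of the pathway were described in 5 lists with 47 genes. Of all symbols, 4.71% passed in mice and 27.5% over all rats, and nothing is read from the counts below. Among ligand carriers and other receptors, 0 of 5 passed in mice and 3 of 4 were lower in Ctns KO rats, INSR (the insulin receptor), IGF2R (which clears IGF2) and IGFALS (which stabilises the IGFBP3 complex in serum), the last 2 named after their values were seen. The median log2 fold change of the 4 genes of this list was -0.34 over all rats, against -0.02 over all symbols tested. It was -0.08 in rats 17 to 24, against -0.01. For the other lists, in the order given next, the median over all rats was -0.055, -0.115, -0.096 and 0.047. Of the growth hormone arm, which drives IGF1 synthesis in liver, 0 of 6 passed in mice and 1 of 4 was lower in rats, the growth hormone receptor GHR. Of proteases and their inhibitors, 1 of 7 was higher in mice and 0 of 7 passed in rats (edgeR). Of adaptors and kinases, 1 of 18 was lower in mice, and 2 of 17 were higher and 3 lower in rats. Of the relatives with an IGFBP domain and the IGF2 mRNA-binding proteins, 2 of 9 were higher in mice, and 2 of 8 were higher and 1 lower in rats. These rat counts are over all rats. Within rats 17 to 24, 0 genes of the 5 lists passed, beside 6.96% of symbols. Within rats 25 to 32, 50.0% of symbols passed. Lower there were 3 of 4 carriers and receptors, 2 of 4 of the growth hormone arm and 2 of 7 proteases and inhibitors. Of adaptors and kinases 3 of 17 were higher and 9 lower, and of the relatives 3 of 8 were higher and 1 lower.

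CCN1, a matrix protein with an IGFBP-like domain, was the gene of these lists that passed in both species. Its scaled value was 0.981 to 1.70 in Ctns KO and 0.347 to 0.648 in Ctns WT mice, and its level was 17.9 to 44.5 CPM in Ctns KO and 13.5 to 26.6 CPM in Ctns WT rats. The groups stood apart in mice, as they did for 12.7% of symbols with a read. In rats they overlapped over all rats and within rats 17 to 24. They did not within rats 25 to 32, where 35.4% of symbols had no overlap. The log2 fold changes were 1.15 (standard error 0.21, adjusted p = 0.0265, limma) and 0.72 (standard error 0.18, adjusted p = 0.00772, edgeR).

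STC2, which blocks PAPPA from cutting the binding proteins, had a scaled value of 0.290 to 0.391 in Ctns KO and 0.110 to 0.130 in Ctns WT mice, with a log2 fold change of 1.02 and a standard error of 0.07 (adjusted p = 0.00100, limma). IGF2BP1, which binds IGF2 mRNA, was 0.0559 to 0.0755 against 0.0175 to 0.0353, and the kinase AKT2 was 2.01 to 2.05 against 2.21 to 2.34. Their log2 fold changes were 0.38 and -0.17 (limma adjusted p = 0.0152 and 0.0174). On the log2(value + 0.1) scale low values show too small a change. The group means differed 2.904-fold for STC2 and 2.389-fold for IGF2BP1. None of these 3 genes had overlapping groups in mice, where 12.7% of symbols with a read had groups that did not overlap. The 3 genes were named because they passed in this same contrast, so nothing is read from that count.

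In rats, the insulin receptor INSR was 18.7 to 50.4 CPM in Ctns KO and 43.6 to 64.7 CPM in Ctns WT animals, with a log2 fold change of -0.49 and a standard error of 0.17 (adjusted p = 0.0457, edgeR). FOXO1, the transcription factor that AKT keeps out of the nucleus, was 7.93 to 17.2 against 13.9 to 23.9 CPM, and GHR was 85.9 to 164 against 126 to 192 CPM. Their log2 fold changes were -0.45 and -0.44 (edgeR adjusted p = 0.0258 and 0.0214). IGFBPL1, an IGFBP-like gene, was 0.387 to 0.931 against 0.222 to 0.604 CPM, with a log2 fold change of 0.96 (adjusted p = 0.00673, edgeR). Over all rats and within rats 17 to 24 the genotypes overlapped for all 4. Within rats 25 to 32 they overlapped for none of the 4, and 35.4% of symbols there had no overlap. Mean CPM in Ctns KO against Ctns WT rats 17 to 24 was 45.66 against 50.02 for INSR and 142.7 against 148.9 for GHR. In rats 25 to 32 it was 26.95 against 51.72 and 97.25 against 176.5. FOXO1 was 15.74 against 18.1 and then 11.19 against 18.7, and IGFBPL1 0.5308 against 0.4117 and then 0.8106 against 0.2766.

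**Figure D5:**
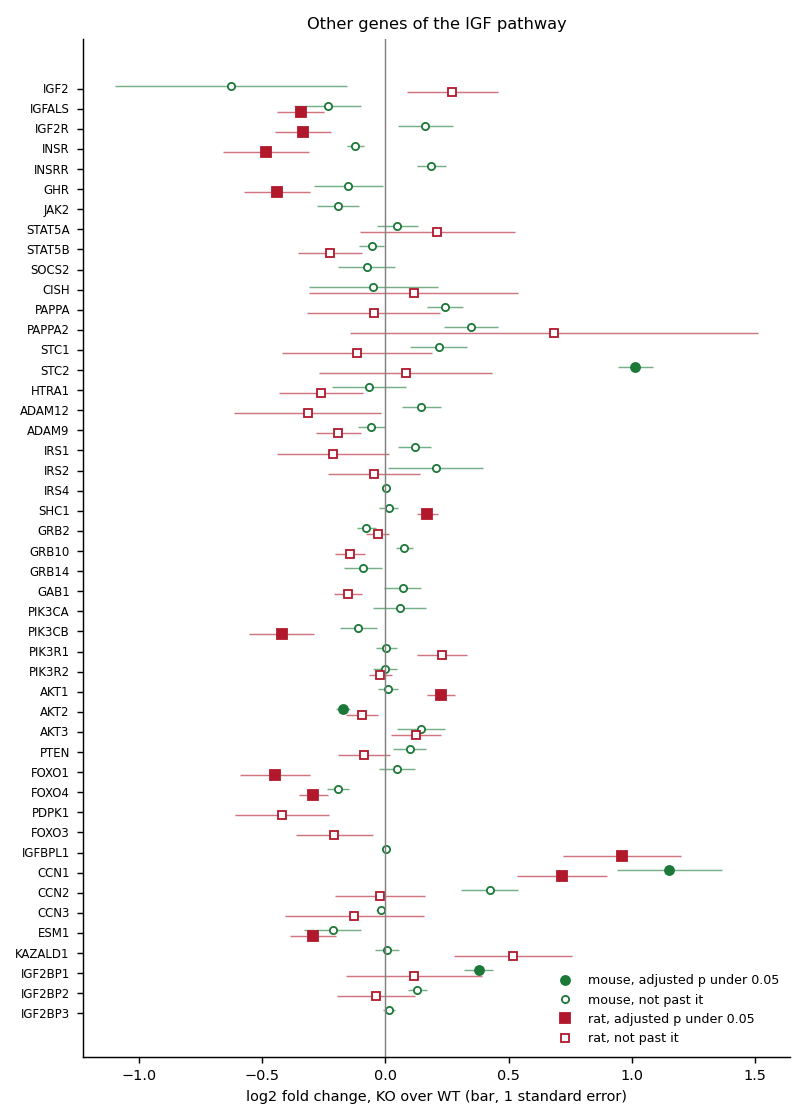
Log2 fold change of Ctns KO over Ctns WT (horizontal axis, bars of 1 standard error) for the other pathway genes in mice and rats, with filled marks for an adjusted p under 0.05. Mouse points are from limma on log2(value + 0.1), which shrinks changes of low values, and rat points are from edgeR on reads. CCN1 is filled in both species, at 1.15 and 0.72, and STC2 lies at 1.02 in mice.

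Likeness of pattern was taken as Pearson's r over the 16 rats among 10818 symbols with an average of at least 1 CPM, a minimum that IGFBP6 did not reach. These values are descriptions, since the rats share genotype, number range and library scale. IGFBP4 was most like TMEM86A (0.95), IL33 (0.94) and AUH (0.94), and over the 8 mice the same pairs had r of 0.12, -0.04 and 0.46. IGF1R was most like AKAP13 (0.96), SPTBN1 (0.96) and VIRMA (0.95), with r of 0.31, 0.14 and 0.52 over the mice. IGFBP2 was most like DAPK3 (0.87), EGFL8 (0.85) and POLR2F (0.85), with 0.37, 0.04 and 0.12 over the mice. For IGF1 the nearest were ZNF98 (0.80), EIF2AK3 (0.80, and 0.80 over the mice) and ANKRA2 (0.79, and 0.14 over the mice). IGFBP5 was nearest to VPS26B (0.81, and 0.11 over the mice), TCEANC (0.78, and 0.66 over the mice) and ZNF41 (0.78). IGFBP7 was nearest to ITM2B (0.83, and 0.78 over the mice), AKR1B10 (0.81) and CMTM8 (0.80, and -0.06 over the mice). No r over the mice was available for ZNF98, ZNF41 and AKR1B10. No member was among the 3 nearest symbols of another.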

How the data were processed

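Libraries of 8 mice and 16 rats were analysed. Per the labels and methods, kidney RNA was made into stranded mRNA libraries and read in 100 nucleotides. The submitters' processing notes name bcl2fastq 2.20, STAR 2.7.3, DESeq2 1.24.0 and R 3.6.1 and the builds mm10 and rn5; the counting, annotation and filters are not given in the sources used here. For mice the authors deposited a normalized signal, worked out from the values as (reads + 0.5) over (75th percentile of that library + 0.5), and whole reads were recovered for 99% of values within 0.01. For rats the authors deposited estimated counts, reads with 1/6 added, which was taken off before rounding to whole numbers (97.7% whole within 0.01). Symbols are of the human style, so several rodent genes can share one; all members held whole reads in every library.

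Mouse values were tested with limma 3.58.1 (trend, robust) on log2(value + 0.1), without a filter, and rat reads with edgeR 4.0.16 (quasi-likelihood, robust, TMM, its filter on low reads), in R 4.3.3. One fit of genotype gave the rat KO against WT values, and a fit of 4 groups gave those by number range. Adjusted p is by Benjamini-Hochberg over all symbols tested, with a threshold of 0.05; the edgeR standard error is the fold change divided by the root of F. The scripts were checked on simulated reads. Alternatives were a pseudocount of 1, other filters, edgeR and DESeq2 1.42.0 on recovered mouse reads, DESeq2, its size factors, limma-voom, number range as a covariate, 8 rats fitted alone and each animal left out; total reads as scale was added after seeing the data. The members, the gene lists and the tests were chosen with earlier results of these data known. All 9 members were named, and of 47 pathway genes those past the threshold in both species and up to 4 more per species with the largest change. Depth limits counting error only, which bears most on low genes, among them IGFBP6, IGFBP2 and IGF2BP1 in mice and IGFBPL1 in rats. The number of animals limits the rest. Promoters were read from RefSeq (GRCr8; 9 of 9 members matched) and mouse gene models from GENCODE vM21 (GRCm38). No amino acid sequence was used here.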

Additional observations from a re-analysis of the deposited data

Results flagged for a closer look

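In 32 groups of animals checked, one for each member, species and genotype, 2 held an animal far from the rest, and chance gives about 1 in 20. IGFBP3 was 4.73 in Ctns KO mouse 3, against 3.45 to 3.58 in the other 3 Ctns KO mice, and this library also had 2.54 CPM of XIST. IGFBP6 was 0.604 CPM in Ctns WT rat 17, from 15 reads, against 0.188 to 0.377 CPM in the other 7 Ctns WT rats. The effect of genotype differed between the rat number ranges for IGFBP2, by 0.53 on the log2 scale (adjusted p = 0.0152, edgeR), and for IGFBP6, by 2.29 (adjusted p = 0.00945, edgeR). Both used the contrast by which the genes were chosen, and what the number ranges stand for is not given, so range and any condition it carries cannot be told apart.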

How the results depend on the processing

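Over 764 alternative values of the members, 691 kept their direction and side of the threshold, 26 lost and 18 gained a call, 29 values that were not called changed sign, and 0 calls were reversed. Of the lost calls, 24 came from leaving out 1 animal. DESeq2 on recovered mouse reads called 1520 symbols instead of 819. With no filter, or with the 8 rats fitted alone, 0 members were called in rats 17 to 24; in rats 25 to 32 DESeq2 called 5 instead of 3; between ranges of Ctns KO rats the 8 rats alone gave 2 instead of 1. The cause of these was not tested. With total reads as scale, chosen after seeing the data, the interaction of genotype and range was past the threshold for 2656 symbols (2309 higher, 347 lower) instead of 1745 (841 and 904), the median of all symbols moving by 0.144; in rats 25 to 32 calls were 4729 higher and 1445 lower instead of 2810 and 3105 (median moved by 0.168), and over all rats 2644 and 687 instead of 1760 and 1420. Between ranges of Ctns WT rats they were 703 and 2450 instead of 1386 and 1117. Leaving out 1 animal gave 412 to 790 symbols and 0 to 3 members in mice (lowest without Ctns KO mouse 6), 503 to 811 symbols and 0 to 1 members in rats 17 to 24 (503 without Ctns WT rat 21), 3 to 5 members in rats 25 to 32, 1010 to 2392 symbols for the interaction, and 1 to 2 and 1 to 3 members between ranges of Ctns WT and Ctns KO rats. No paired analysis was run, because the labels give no litter or other pairing of the animals.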
